A study of Mus musculus with 11 samples.

Results

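Described here are 9 late myelin genes, grouped as dependent on Myrf, in mouse oligodendrocytes and their progenitors grown in culture. They are Mag, Mog, Mobp, Mal, Opalin, Ermn, Tppp, Aspa and Car2. They were taken by name, and their probe sets are all those annotated to exactly 1 of them, 16 of the 45101 on the array. The genes were chosen by their signals, low in knockout and high in control oligodendrocytes, so that comparison is given for them as a description without a test. RNA was measured on 11 Affymetrix Mouse Genome 430 2.0 arrays, which give 1 signal per probe set.

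Knockout oligodendrocytes (n = 3) carried MRF fl/fl with Olig2 wt/cre, where MRF is the label's name for Myrf and Cre is driven by the Olig2 gene. Control oligodendrocytes (n = 4) were littermates with MRF wt/fl and the same Olig2 wt/cre, so they also carried Cre and 1 Myrf copy that Cre can delete. Both cultures had 4 days of the thyroid hormone T3 at 40 ng/ml without PDGF-AA. Progenitors (n = 4) grew for 6 days with PDGF-AA at 10 ng/ml. Their labels read control and state no alleles. All cells came from brains at postnatal day 7, were depleted of microglia and were selected for PDGFRα. Whether replicates came from separate animals or cultures is not stated, so the spread behind each p-value may be technical.

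Oligodendrocytes wrap axons in myelin, a stack of tightly apposed membrane. They switch on its genes in sequence, with Mbp and Cnp early and the genes treated here among the later ones. Myrf is a membrane-bound transcription factor that cleaves itself and releases a DNA-binding fragment, and it is known to be required for central myelination. The arrays hold a single time of differentiation, so an order in time was not measured.

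The cultures were mixed in their markers. Olig1, Olig2, Sox10 and Nkx2-2 each exceeded a signal of 200 in every group, and their summed signal was 40206 to 44051 in knockout cultures, 32267 to 37002 in control cultures and 39253 to 62278 in progenitors. All 8 astrocyte markers also exceeded 200 on some array of the knockout and the control cultures, and 4 of 8 did in progenitors, with sums of 83450 to 89824 in knockout, 55794 to 75636 in control and 5074 to 10499 in progenitor arrays. Gfap, the defining astrocyte filament, had 14658 to 17212 on oligodendrocyte arrays and 61.8 to 100.3 on progenitor arrays. Sums of 10 pericyte, smooth muscle and fibroblast markers were 4753 to 8321 in knockout, 1006 to 2901 in control and 331 to 581 in progenitor arrays. Sums of 4 progenitor markers were 14894 to 17840 in knockout cultures, 8744 to 11652 in control cultures and 21793 to 30384 in progenitors. The 4 did not move alike, so their sum does not order the 2 oligodendrocyte groups. Gpr17 had 10016 to 13929 in knockout and 5442 to 7661 in control cultures, while Pdgfra had 1316 to 1665 and 1742 to 3532. Cspg4 lay under 200 in both, and C1ql1 was lowest in progenitors, at 153 to 271. Neuron markers, 6 in all, summed to 326 to 580 in knockout cultures, 506 to 1963 in control cultures and 683 to 1159 in progenitors. The 6 microglial and 4 endothelial markers stayed under 200 on every array, and the 4 measured Schwann cell markers did so in both oligodendrocyte groups. In bulk RNA, fewer cells of a type and less RNA per cell cannot be told apart, and the part that astrocyte or mural cell RNA plays in the differences below was not tested. Progenitor replicates 1 and 4 had ratios of 5′ to 3′ Gapdh signal of 0.332 and 0.12, against 1.15 to 1.41 on the other 9 arrays. Progenitor replicate 2 had a summed signal of 4 dividing-cell markers of 7602, against 29898 to 39608 on the other progenitor arrays. Myrf itself had signals of 2849, 1904 and 2223 on knockout arrays and 6215 to 7517 on control arrays, from a single probe set. Where it lies relative to the deletion was not examined.

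Knockout and control oligodendrocytes were set side by side to describe how far each late myelin gene was lowered when Myrf could be deleted. All 9 genes were lower on every knockout array than on every control array, although 2 control signals of Aspa, like all its knockout signals, lay under 100, where an array cannot rank levels. Such a gap towards lower values was found for 14.2% of the 10069 genes that passed the filter, and the choice of the genes fixed this count for the 9. The differences ranged from -5.90 for Tppp to -0.80 for Aspa on the scale of log2(signal + 16), with a median of -4.80 over all 9 genes, beside 0.03 over all genes tested. Mag, Mog, Mobp, Ermn and Tppp lay at -4 or lower, as did 0.179% of all genes. A gene was represented by its brightest probe set that reached 200 on at least 3 arrays. Aspa did not reach that filter and is given by its values only. Mog, Ermn and Tppp passed it only through the control arrays, so the filter favoured a difference between the groups for them.

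**Figure D1:**
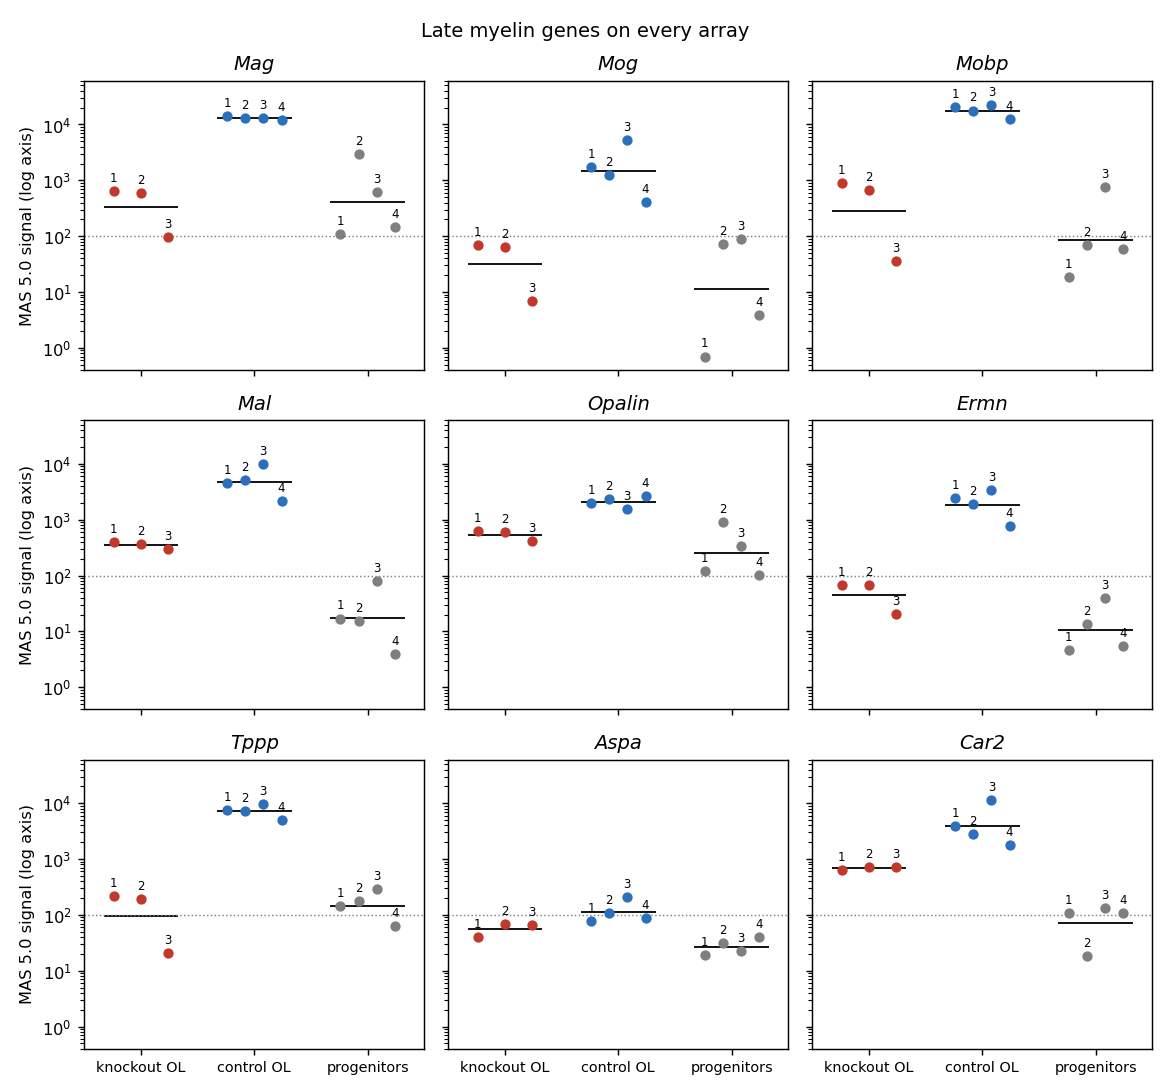
MAS 5.0 signal (log axis) of the brightest probe set of each of the 9 genes in knockout oligodendrocytes (OL), control OL and progenitors. Each numbered point is an array replicate, bars are geometric means, and the dotted line marks a signal of 100. Every knockout point lies below every control point, and knockout points lie wholly above progenitor points for Mal and Car2.

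Promoter sequence was available for 8 of the 9 genes, and Car2 was not matched. Windows from RefSeq on GRCm38.p6 ran from 250 bases before to 50 after a transcript's start. They were searched on both strands for CTGGCAC and CTGGTAC, forms of the sequence that mouse Myrf binds, and for ACAAAG, the core of Sox family sites. CTGGCAC was in windows of Mag and Opalin, beside 5.01% of all 32851 windows, and the match of Opalin lay 37 bases after the start. Mag had 3 windows, the other genes 1 each, and the third of Mag held none of the 3 sequences. CTGGTAC was in that of Mog, beside 2.24%. ACAAAG was in those of Mag, Opalin and Mobp, beside 18.7%. Mobp held 6 copies, all as CTTTGT, and no other window held as many. Mal, Ermn, Tppp and Aspa had none of the 3 in their windows. The matches do not overlap each other and describe letters only. Among the 4 genes with a match before the start, the stretches of the 3 with the deepest differences between knockout and control cultures are shown in the direction of transcription with matches in capitals. Mobp lies at chr9:120149492-120149651 on the plus strand, from 250 to 91 bases before the start. Mag at chr7:30914923-30915022 and Mog at chr17:37023399-37023518 lie on the minus strand and end at the base before the start. For Mag this is the start of its second window, where CTGGCAC is at -9, against -68 from the start of its first window.
Mobp: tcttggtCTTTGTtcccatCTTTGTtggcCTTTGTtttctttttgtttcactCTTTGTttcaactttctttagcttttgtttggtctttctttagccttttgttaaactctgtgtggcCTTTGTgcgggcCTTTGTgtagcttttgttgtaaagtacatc
Mag: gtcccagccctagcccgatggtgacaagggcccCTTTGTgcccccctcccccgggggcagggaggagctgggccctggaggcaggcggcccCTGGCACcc
Mog: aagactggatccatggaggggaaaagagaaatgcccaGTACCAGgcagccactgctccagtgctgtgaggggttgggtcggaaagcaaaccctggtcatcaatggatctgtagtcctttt

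Mag, Mog and Opalin are surface proteins of the oligodendrocyte and its myelin. Mag, a sialic acid-binding adhesion protein on the membrane that faces the axon, had signals of 638.7, 593.2 and 95.3 on knockout arrays, against 14251, 13318, 13226 and 11997 on control arrays. Control signals of Mag thus differed by only 1.19-fold among themselves, while knockout replicate 3, under 100, lay far below replicates 1 and 2. The log2 difference was -5.22 ± 0.93 (SE), a 37.2-fold lower level, which was 20.9-fold without knockout replicate 3. On progenitor replicates 1 to 4 Mag had 107.2, 2957, 622.1 and 144.9, so the progenitor and knockout ranges overlapped.

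Mog, an immunoglobulin-type protein of the outermost myelin surface, had 68.2, 64.2 and 6.9 in knockout cultures, against 1743, 1256, 5318 and 403.3 in control cultures. Its control signals spread 13.2-fold, the widest control range of the 9 genes. Every knockout signal of Mog lay under 100, so the level was at least 14.7-fold lower, taken against that floor. Leaving out control replicate 3 made the bound 9.59-fold, and leaving out control replicate 4 made it 22.7-fold. Progenitor signals were 0.7, 71.1, 88.9 and 3.8, also under the floor.

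Opalin, a transmembrane glycoprotein found in oligodendrocytes, had 620.4, 597.8 and 419.3 in knockout cultures, against 1984, 2327, 1552 and 2626 in control cultures. Its difference of -1.92 ± 0.56 (SE), 3.79-fold lower, was the smallest of the 8 genes in the fit, except without control replicate 3, where Opalin had -2.06 and Car2 -1.94. Control replicate 3 was the lowest control array for Opalin, although it was the highest for 7 of the 9 genes. Progenitors had 120.4, 909.1, 336.1 and 103.4, and replicate 2 lay above all knockout arrays. A further Opalin probe set had at most 91.0 on any array and overlapped between groups.

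Mobp and Mal belong to the myelin membrane itself. Mobp, the small basic protein of compact myelin whose promoter held the 6 CTTTGT copies, had 903.4, 684.2 and 35.3 in knockout cultures, against 20325, 17803, 22066 and 12531 in control cultures. Knockout replicate 3, under 100, was far the lowest. The log2 difference was -5.79 ± 1.04 (SE), 55.5-fold lower, and it was 22.2-fold without knockout replicate 3 and 93.9-fold without knockout replicate 1. Progenitor signals were 18.9, 69.9, 751.3 and 57.8, with replicate 3 alone inside the range of the upper knockout arrays. Among 5 Mobp probe sets the 4 that passed the filter gave differences of -5.55 to -5.79, and the dimmest gave -2.72, with at most 9.2 on knockout and 348.2 on control arrays.

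Mal, a proteolipid that helps sort myelin components to lipid rafts, had 393.8, 371.8 and 303.6 in knockout cultures, against 4620, 5222, 10038 and 2179 in control cultures. In this gene the 3 knockout arrays lay within 1.30-fold of each other. The difference was -3.70 ± 0.53 (SE), 12.99-fold lower, and a second probe set gave -3.42. Progenitors had only 17.0, 15.3, 81.2 and 4.0, below all knockout arrays.

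Ermn and Tppp act on the cytoskeleton. Ermn, an actin-associated protein of oligodendrocytes, had 68.4, 67.5 and 20.6 in knockout cultures, against 2413, 1892, 3432 and 770.1 in control cultures, at least 18.6-fold lower. Its second probe set gave a difference of -4.98, beside -4.89 for the first. Tppp, which promotes tubulin polymerisation, had 217.9, 190.3 and 21.0 in knockout cultures, against 7607, 7337, 9566 and 5042 in control cultures. Its difference of -5.90 ± 0.59 (SE), 59.5-fold lower, was 32.9-fold without knockout replicate 3. In progenitors Ermn had 4.6, 13.6, 39.3 and 5.4. Tppp had 141.4, 180.2, 294.5 and 62.0 there, a range that took in knockout replicates 1 and 2. Knockout replicate 3 and progenitor replicate 4 both lay under 100 and have no order.

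Aspa and Car2 encode enzymes. Aspa, which splits N-acetylaspartate and so frees acetate, had 39.5, 68.8 and 67.0 in knockout cultures, against 77.0, 107.7, 207.3 and 87.4 in control cultures and 19.1, 31.4, 22.3 and 40.6 in progenitors. These signals lie near or under the floor of 100, and the bound of at least 1.11-fold lower in knockout cultures did not hold without control replicate 3. Car2, a carbonic anhydrase of the oligodendrocyte cytoplasm, had 627.9, 728.6 and 726.7 in knockout cultures, against 3898, 2860, 11215 and 1758 in control cultures. The difference was -2.45 ± 0.59 (SE), 5.46-fold lower. Progenitors had 107.5, 18.1, 132.3 and 109.1, all below the knockout arrays.

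Within each group several of the genes ranked the arrays alike. Knockout replicate 3 was the lowest knockout array for Mag, Mobp, Mal, Opalin and Tppp, 5 of the 6 genes with knockout signals above 100, and Car2 was the exception. Mobp, Mag and Tppp lay under 100 on that array, which allows at most 0.562%, 0.759% and 1.39% of the geometric mean of control arrays, where knockout replicates 1 and 2 held 2.64% to 5.08% for the same genes. Its Myrf signal lay between those of the other 2 knockout arrays, at 32.2% of the control level, against 41.2% and 27.6%. Control replicate 3 was the highest control array for 7 genes, all but Mag and Opalin, and control replicate 4 was the lowest for 7, all but Opalin and Aspa. The summed astrocyte markers of control replicate 3 were the lowest of the oligodendrocyte arrays, 55794, and its dividing-cell markers the highest of them, 3922 against 462 to 2165 on the other 6. Its summed neuron markers were also the highest of them, 1963 against 326 to 888, with Nefm at 927.1 and Nefl at 651.7. The pericyte, smooth muscle and fibroblast sum was highest on knockout replicate 3, at 8321. Their part in this order was not tested.

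Other genes of myelin and of mature oligodendrocytes, from lists chosen with earlier results known, gave the surroundings of these values. Of 21 other myelin protein genes tested, 3 were lower in knockout cultures and 0 higher (limma, adjusted p under 0.05), where 3.88% of all genes were lower and 3.64% higher. The count was 1 without knockout replicate 2, 5 without progenitor replicate 2, and 6 in a fit of these cultures alone with replicate number as a block, which drops control replicate 4. Over all 10069 genes, those passing in either direction numbered 374, 1323 and 2237 in these fits, beside 758 in the fit of all arrays. The count of myelin protein genes thus rose and fell with that of all genes. Gjb1 reached the filter only through control arrays, which favours a difference. Of the other 20 genes, 2 were lower. Their median log2 difference was -0.21, beside -0.22 over all 21. These were Tspan2, a tetraspanin, 3.43-fold lower (limma, adjusted p = 0.0462), and Anln, 4.62-fold (0.0124). Gjb1, a gap junction protein, was at least 6.12-fold lower. Anln also serves cytokinesis, and had 749 to 2955 on progenitor arrays, beside 491 to 1175 on control arrays. The abundant Cnp, Bcas1 and Gpm6b did not pass, with differences of -0.22, -0.07 and 0.11. Cnp had 17642 to 21228 in knockout and 21096 to 26673 in control cultures, close to the top signals of those arrays.

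Of 24 other mature oligodendrocyte genes tested, 15 were lower and 0 higher, with a median of -2.37. However, 12 of the 24 reached the filter only through control arrays, and 10 of the 15 were among these. Over all genes tested, 280 reached it in that way, and 85 of those were lower. Of the other 12 mature oligodendrocyte genes, 5 were lower, 41.7% beside 3.13% of all genes that reached the filter otherwise. Their median was -0.66. The 5 with the deepest differences all reached it only through control arrays, so their values are given without a test. Klk6, a secreted serine protease, was at least 6.99-fold lower, with 9.6 to 40.3 in knockout and 419 to 960 in control cultures. Pex5l, Tmem125 and Nipal4 were lower 18.6-fold, 16.3-fold and at least 8.89-fold, and S1pr5, a sphingosine 1-phosphate receptor, at least 4.84-fold. The galactolipid enzymes Ugt8a and Gal3st1 did not pass, at -0.82 and -0.32, nor did the glycolipid transfer protein Gltp, at -0.29. Against progenitors, 13 of the 21 myelin protein genes and 10 of the 24 mature oligodendrocyte genes were higher in knockout cultures, and 16 and 22 were in control cultures (limma, adjusted p under 0.05). Over all genes the shares were 23.8% for knockout and 24.4% for control cultures. Gjb1 and the 12 mature oligodendrocyte genes that reached the filter only through control arrays were favoured for a higher control level. Nothing is therefore read from the control counts of these lists.

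**Figure D2:**
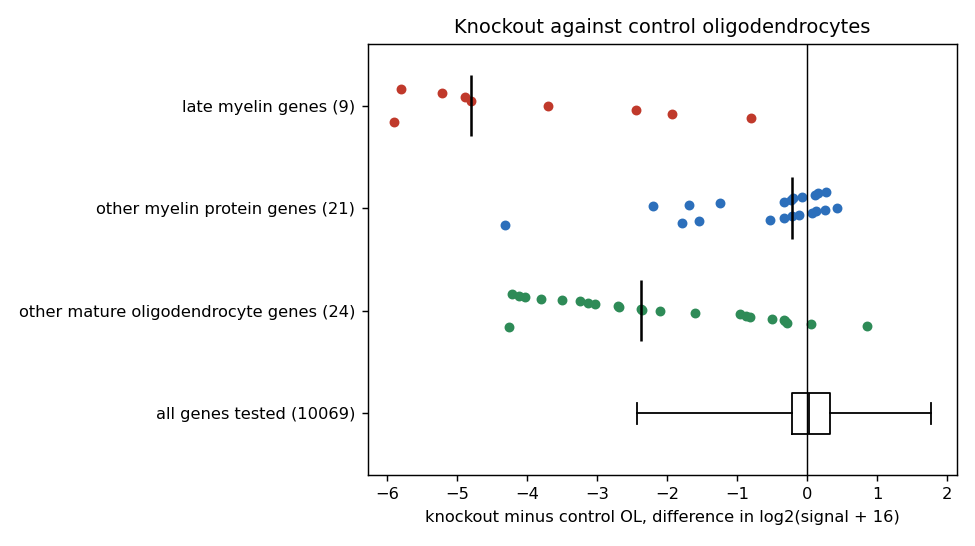
Difference of knockout minus control oligodendrocytes (OL) in log2(signal + 16) for the 9 late myelin genes, 21 other myelin protein genes and 24 other mature oligodendrocyte genes. Points are genes, black bars are list medians of -4.80, -0.22 and -2.37, and the box below shows the quartiles of all 10069 genes with whiskers at the first and the 99th percentile.

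Control oligodendrocytes were then compared with progenitors, which asks how the late myelin genes stand after differentiation in the presence of Myrf. This comparison shares the control arrays with the one that chose the genes, so a high control level helped to select them, and Mog, Ermn and Tppp entered the fit through it. It is therefore given as a description without a test. For all 9 genes every control array lay above every progenitor array, as for 20.1% of all genes, and nothing is read from that count. For Aspa the control signals of 77.0 and 87.4 and all progenitor signals lay under 100, where an array cannot rank levels. The median difference was 5.36 over the 9 genes, beside -0.09 over all genes.

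Mobp differed by 7.29 ± 0.96 (SE), or 156-fold. Mal was at least 47.9-fold higher in control oligodendrocytes, Ermn at least 18.6-fold and Mog at least 14.7-fold. Tppp was 43.6-fold higher and Car2 41.2-fold, with differences of 5.45 ± 0.55 and 5.36 ± 0.54 (SE). Mag was 29.95-fold and Opalin 7.78-fold higher, with differences of 4.90 ± 0.86 and 2.96 ± 0.52 (SE). Without progenitor replicate 2 these folds became 56.6 and 11.7, and without progenitor replicate 1 that of Mag was 19.6. Progenitor replicates 1 and 4 had the low Gapdh ratios. Without both, the differences were smaller, 3.26 for Mag, 1.88 for Opalin, 6.12 for Mobp and 4.87 for Tppp. That of Car2 was larger, at 5.77, and the median over the 9 genes was 4.87. This alternative was chosen after seeing the data. Mog stood at least 9.59-fold higher when control replicate 3 was left out and at least 22.7-fold when replicate 4 was. Aspa was at least 1.11-fold higher, and no bound could be given without control replicate 3.

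Knockout oligodendrocytes were compared with the same progenitors to see which late myelin genes were raised under differentiation conditions when Myrf could be deleted. This comparison shares the knockout arrays with the one that chose the genes, so low knockout levels helped to select them. That choice works against a call of higher and favours genes that do not pass, so nothing is read from how many failed. Mal and Car2 were higher in knockout oligodendrocytes, 2 of the 8 genes in the fit, near the background of 23.8% of all genes. Mal was at least 3.54-fold higher, with a difference of 3.30 ± 0.53 (SE; limma, adjusted p = 0.000382). Car2 was 7.54-fold higher, at 2.91 ± 0.59 (SE; limma, adjusted p = 0.00169). For both, all 3 knockout arrays lay above all 4 progenitor arrays, as for 23.5% of all genes, and the calls held under each of 21 alternatives, with adjusted p-values up to 0.00893 and 0.00883. Both probe sets of Mal passed (limma over 18568 probe sets, adjusted p = 0.000524 and 0.00292).

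The other 6 genes did not pass, and their knockout and progenitor ranges overlapped. Mog and Ermn lay under 100 on every array of both groups, so their levels have no order there. The differences were 1.49 ± 1.04 (SE) for Mobp, 1.04 ± 0.56 for Opalin, -0.31 ± 0.93 for Mag and -0.45 ± 0.59 for Tppp (limma, adjusted p of 0.142 to 0.797). Errors of this size do not show that the levels were alike. Without knockout replicate 3 the signs of Mag (0.52) and Tppp (0.41) turned, and that of Mag also without progenitor replicate 2 (0.60). Without progenitor replicate 2 Opalin passed (limma, adjusted p = 0.00192), and Mobp did without progenitor replicate 3 (0.0395) and without knockout replicate 3 (0.0275). One of the 4 tested Mobp probe sets passed on its own (limma over probe sets, adjusted p = 0.0438), with arrays that overlapped.

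**Figure D3:**
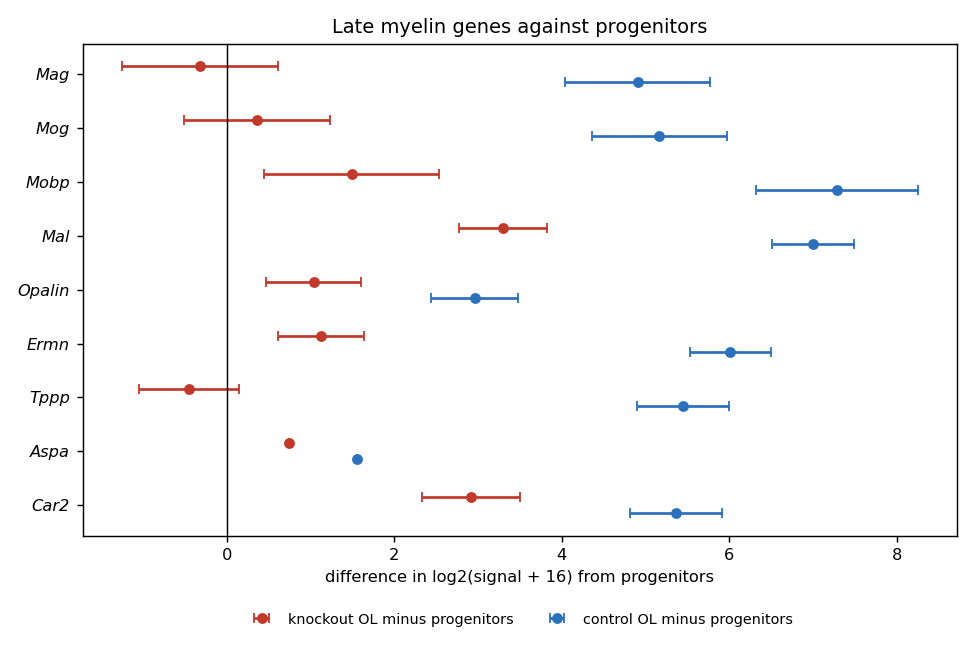
Difference from progenitors in log2(signal + 16) for each of the 9 genes, for knockout oligodendrocytes (OL, red) and control OL (blue). Points are fitted differences and bars their SE, and Aspa, outside the fit, has no bar. All control points lie at 1.55 or higher, while knockout points run from -0.45 for Tppp to 3.30 for Mal. Those of Mog and Ermn rest on signals under 100.

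Progenitor arrays were not alike in these genes. On progenitor replicate 2 Myrf reached 99.1% of the control oligodendrocyte level, Mbp 95.6% and Cnp 118%. On the same array Mag was at 22.4%, Opalin at 43.6% and Tppp at 2.5%. Mobp, Mal, Car2, Ermn and Mog had signals under 100 there, which allows at most 0.562% for Mobp, 2.09% for Mal, 2.6% for Car2, 5.37% for Ermn and 6.79% for Mog. So a culture labelled progenitor had Myrf and Mbp signals close to those of control oligodendrocytes, with Mobp, Mal and Car2 under 3% of theirs. On progenitor replicate 3 Mbp was at 74.2% and Myrf at 16.4%, with Mobp at 4.22% and Mal at most at 2.09%. That array was the highest progenitor array for Mobp, Tppp and Car2, 3 of the 5 genes that exceeded 100 in progenitors. In knockout oligodendrocytes Mbp held 78.7% to 89.1% and Cldn11, a tight junction protein of myelin, 69.1% to 95.6%, where Mal held 6.33% to 8.22% and Car2 16.3% to 18.9%. Mbp had signals of 15944 to 18058 there, on arrays whose highest signals were 22089 to 24031. Whether signals that high are compressed was not tested.

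**Figure D4:**
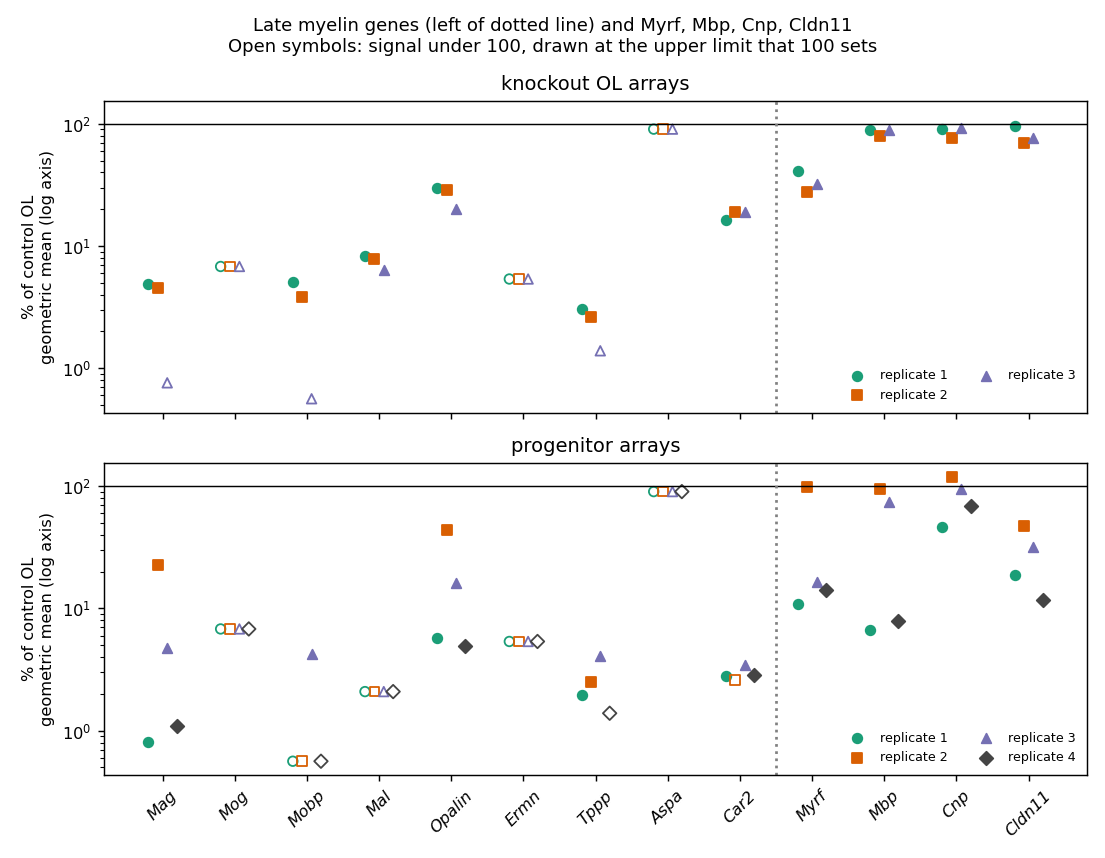
Signal on each knockout OL array (upper panel) and each progenitor array (lower panel) as a percent of the geometric mean of control OL (log axis, line at 100), for the 9 late myelin genes and for Myrf, Mbp, Cnp and Cldn11. Open symbols stand for signals under 100 and are drawn at the upper limit that 100 sets. Progenitor replicate 2 reaches 99.1% for Myrf and at most 0.562% for Mobp.

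Genes with a pattern like the late myelin genes were sought over all 11 arrays, among genes that were not members. Likeness was the root mean square difference, in log2 units, between a gene's signals centred on their mean and the mean centred profile of the 8 genes in the fit. The nearest were Kndc1 at 0.35, Pex5l at 0.39, Nipal4 at 0.55, Septin4 at 0.61, Dct at 0.73 and Lpar1 at 0.76. Of the 8 genes themselves Ermn lay closest to the profile, at 0.38, and Opalin farthest, at 1.403. Kndc1 had 384.4, 228.8 and 113.0 in knockout cultures, against 3355, 2660, 7580 and 2557 in control cultures and 21.9, 151.6, 145.2 and 33.9 in progenitors. Its knockout replicate 3 and control replicate 3 were, as for Mobp and Tppp, the lowest and the highest arrays of their groups. Arrays of a group share culture conditions, and these distances are a description only.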

How the data were processed

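The deposited values are MAS 5.0 signal intensity per probe set on a linear scale, made by the authors with GCOS 1.3 and scaled per chip to a target of 500, per the labels' protocols and the submitters' processing notes. Array medians were 60.5 to 80.4, and the number of arrays limits the precision. No read depth exists for arrays. Probe sets were named from the platform annotation, updated through the Entrez identifier for 34754 of them, and the 64 control probe sets were left out.

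Signals were used as deposited, as log2(signal + 16). Genes with a signal of 200 on at least 3 arrays were kept and represented by their brightest probe set. In limma 3.58.1 (R 4.3.3), group means were estimated over all 11 arrays with a variance trend and Benjamini-Hochberg adjustment over all 10069 genes and a threshold of 0.05. Errors are standard errors of that fit. Folds are fitted differences on the log2(signal + 16) scale, which understates the change of dim genes, or, where every array of the lower group was under 100, the geometric mean of the higher group over 100. Correlations of the arrays' deviations from group means were 0.242, 0.241 and 0.214 for same-numbered knockout and control arrays. Differently numbered ones had -0.343 to 0.328, the highest being knockout replicate 3 with control replicate 4. Whether the numbers pair these arrays is thus uncertain, and the labels do not say. The main fit is unpaired, and the replicate block was an alternative. Same-numbered control and progenitor arrays had -0.069 to 0.193, against -0.246 to 0.176 for differently numbered ones, so pairing is uncertain there too. Same-numbered knockout and progenitor arrays had -0.117 to 0.033, against -0.212 to 0.188, which gives no sign of pairing. The procedure was checked on simulated data.

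The 9 genes, the other lists and the tests were chosen with earlier results of these data known. Genes named beyond the 9 and Myrf were, per list, up to 5 with the largest differences past the threshold in each direction and the 3 brightest that did not pass, and the 6 most alike in pattern. Of 23 other myelin protein genes listed, 21 had a probe set with their symbol, and of 30 other mature oligodendrocyte genes 29 did. Mbp and Cldn11 were named after their values were seen. Not every listed gene is reported here.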

Additional observations from a re-analysis of the deposited data

Results flagged for a closer look

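Car2 on progenitor replicate 2 had a signal of 18.1, against 107.5 to 132.3 on the other progenitor arrays, a gap of 0.876 of the group's whole range on the log2(signal + 16) scale, beyond Dixon's 95% limit for 4 samples. It was the only such value among 20 groups of 4 arrays, made of control and progenitor arrays for the 9 genes and Myrf, and chance marks about 1 in 20 groups. The value lies under 100, where signals have no order, so the size of the gap is not measured. The same array had the highest progenitor signals of Mag and Opalin.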

How the results depend on the processing

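The count of late myelin genes higher in knockout oligodendrocytes than in progenitors was 2, and 2 to 4 when single arrays were left out. It was 4 without knockout replicate 3 and 4 without progenitor replicate 3, and 1 of the genes added in each is Ermn, whose signals there were all under 100. It was also 2 without progenitor replicates 1 and 4, an alternative chosen after seeing the data, with a median difference of 0.32, beside 1.04, and with Opalin at -0.04. The median difference of the 9 genes between knockout and control cultures was -3.88 with a pseudocount of 64, and -5.26 to -4.19 without single arrays. That median was 4.90 to 5.74 for control oligodendrocytes against progenitors and 0.71 to 1.21 for knockout oligodendrocytes against progenitors without single arrays. The other myelin protein genes lower in knockout cultures numbered 6 when only the compared groups were fitted, 5 without progenitor replicates 1 and 4, and 1 to 5 without single arrays. With replicate number as a block they numbered 2 in the fit of all groups and 6 in that of knockout and control arrays, also chosen after seeing the data. Both blocked fits leave out replicate 4. The other mature oligodendrocyte genes numbered 12 to 18 without single arrays, and 20 with the replicate block in the fit of knockout and control arrays. The replicate block changed no call of a late myelin gene. The cause of these shifts was not tested. The depth of Tppp and Mobp against control cultures had no fixed order, since Mobp lay deeper with a pseudocount of 64 (-5.42 against -5.31), and likewise Mal had 8.01 and Mobp 7.64 against progenitors with a pseudocount of 1. Signals under 100 have no order, which limits Mog, Ermn and Aspa, Mal in progenitors, and Mobp, Tppp, Mag and Car2 on single arrays.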
